A study of Mus musculus with 12 samples.

Results

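Genes of cholesterol and fatty acid synthesis were followed in primary vascular smooth muscle cells (VSMC) of the mouse aorta. The set holds 32 genes, found by name in both deposited count tables among the 26728 names the tables share. Of these, 18 encode enzymes of sterol synthesis, 6 control the sterol regulatory element binding proteins (SREBP) or carry sterol, and 8 encode enzymes of fatty acid synthesis and desaturation. All 32 were above the low-count filter in every fit. RNA had been sequenced in 12 libraries, 3 in each of 4 groups: wild type (WT) cells at day 1 and at day 14, and cells with a knockout of NR4A3 (NR4A3KO, here KO) at the same days. NR4A3 is a nuclear receptor of the NR4A family. Per the protocols, every group was grown in DMEM/F12 with 10% FBS and held 10 mM β-GP, a phosphate donor used to drive mineral deposition. The treatment label, however, reads none for WT and β-GP for KO, so a contrast of genotypes also holds whatever that label stands for. The labels do not say how the gene was disrupted, how old the mice were, or whether the 3 replicates of a group came from separate animals or cultures. The p-values therefore reflect only how far these libraries differ, and that spread may be technical.

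Cells make cholesterol from acetyl-CoA by way of mevalonate, farnesyl diphosphate, squalene and lanosterol. Fatty acids are built from the same acetyl-CoA, supplied from citrate, and are then elongated and desaturated. Both routes are switched on by SREBP, which lie in the membrane of the endoplasmic reticulum together with their escort SCAP. When sterol is plentiful, INSIG proteins hold the complex there, and when it is scarce the complex moves to the Golgi, where SREBP are cut and freed to enter the nucleus. The product of Srebf2 acts mainly on sterol genes and that of Srebf1 mainly on fatty acid genes.

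Levels are given as CPM, each count scaled to its library's size after TMM scaling, and as mean ± SD of 3 libraries. Depth per library lay between 24929624 and 30105118 counts in WT of day 1 and between 17143281 and 20091307 in KO of that day. For day 14 the depth lay between 13848199 and 19519654 counts (WT) and between 14369933 and 18797157 (KO). Nr4a3 itself had 4.25 ± 0.385 CPM in WT against 2.08 ± 0.235 CPM in KO on day 1, and 237 ± 19.6 against 49.6 ± 13.6 CPM on day 14. Over 15973 genes, KO of day 1 and WT of day 14 resembled each other: log2 CPM correlated with a median of 0.974 between these groups, against 0.921 to 0.936 between other pairs of groups. Single pairs of libraries between these groups ranged from 0.962 to 0.981. How many genes differed between these groups depended on single libraries, as given below with the crossed pairs. Within the groups the medians were 0.982 (KO of day 1) and 0.975 (WT of day 14, range 0.970 to 0.980). By these medians, the likeness between the groups nearly matched that among WT libraries of day 14. Exchanged labels could give such a likeness and would change what each contrast stands for. Whether any labels were exchanged was not tested. Nr4a3 was lower in the libraries labelled KO on both days, at day 1 between low levels (4.25 against 2.08 CPM). KO at day 14, with 49.6 CPM, still stood above WT at day 1. What these levels mean for the labels was not tested. Of the smooth muscle markers, Acta2 (means of 276 to 1628 CPM), Des and Smtn were present. Tagln stayed at or below 0.244 CPM, Myh11 at or below 0.574 CPM and Myocd at or below 0.486 CPM in every group's mean. These 3 defining markers of contractile smooth muscle were thus near 0. The list of 8 also held Cnn1 and Lmod1. In KO at day 14 only the 3 near 0 were below 1 CPM, so Cnn1 and Lmod1 were not. In WT at day 1, 5 of the 8 were below 1 CPM. Summed levels were 1022 to 1083 CPM (WT) and 1296 to 1483 CPM (KO) at day 1. At day 14 they were 1136 to 1851 and 2001 to 2400 CPM. Of 5 tested, 3 were higher and 1 lower in KO at day 1, and 2 were higher and 2 lower at day 14. In bulk RNA, fewer cells of a type and less RNA per cell cannot be told apart.

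The pathway as a whole was highest in WT at day 1, and in 28 of the 32 genes the group means fell in the same order: WT at day 1, KO at day 14, WT at day 14, KO at day 1. Of all 15973 genes, 6.75% had this order. The order spans both deposited tables, and a batch that follows the table cannot be told apart from the day in it. It held for 17 of 18 sterol genes, 4 of 6 control genes and 7 of 8 fatty acid genes. Relative to WT at day 1, the median gene stood at 23% in KO at day 1, 34.3% in WT at day 14 and 60.4% in KO at day 14. Ranked by mean within each gene, the top group did not overlap the next in 29 genes, the middle pair of groups did not overlap in 22, and the lowest pair did not overlap in 5. Over all genes, each ranked by its own group means, the shares were 40.6%, 33.8% and 35.7%. For the pairs themselves, 69.5% of all genes did not overlap between WT at day 1 and KO at day 14. The share was 58.1% between KO and WT at day 14, and 20.5% between WT at day 14 and KO at day 1. Together the 32 genes took 1.05% to 1.07% of all counts in WT at day 1, 0.250% to 0.267% in KO at day 1, 0.246% to 0.425% in WT at day 14 and 0.544% to 0.591% in KO at day 14. Insig2, Scap, Fads1 and Hsd17b7 departed from the common order and are described with their groups.

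**Figure D1:**
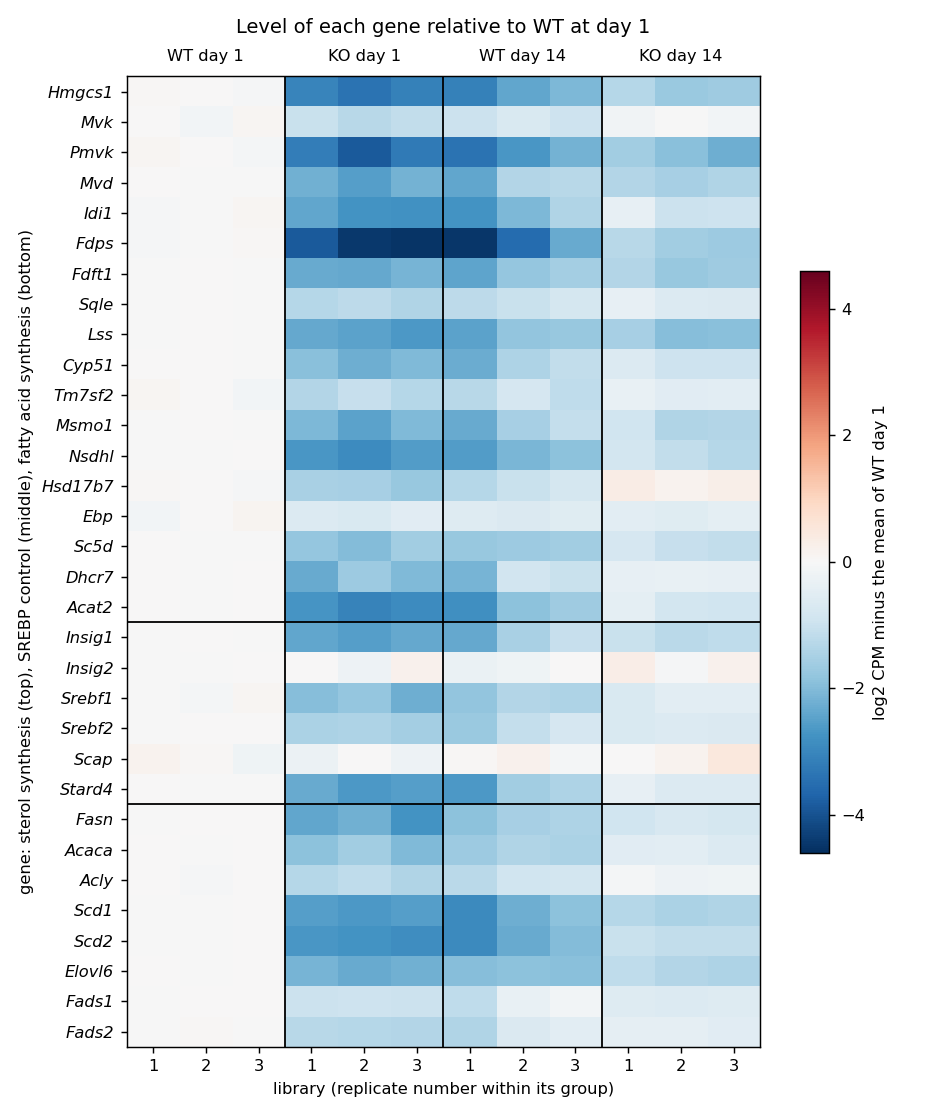
Level of each of the 32 genes (rows, by role) in each of the 12 libraries (columns), as log2 CPM minus the mean of WT at day 1 (colour scale). Most genes are lowest in KO at day 1 and in WT replicate 1 of day 14, and Insig2 and Scap stay near 0 in all columns.

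Spread within groups differed. The median coefficient of variation over the 32 genes was 2.16% in WT at day 1, 11.4% in KO at day 1, 8.69% in KO at day 14 and 29.6% in WT at day 14. In WT at day 14, replicate 1 was the lowest library for 30 genes and replicate 3 the highest for 25. Replicate 1 lay within the range of the KO libraries of day 1 for 18 genes and below it for 9 (40.7% and 29.3% of all genes), while replicates 2 and 3 lay above that range for 29 and 28 (35% and 34.4% of all genes). All 3 WT libraries were mostly below the KO libraries of the same day: 31, 28 and 23 of the 32 genes in replicates 1, 2 and 3 were under the lowest KO value. Over all 15973 genes these shares were 41.3%, 43.7% and 42.9%.

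Since 30 of the 32 genes were called at day 1, their upstream sequence was examined for letters that SREBP and their usual partners are known to bind. RefSeq promoters (GRCm38.p6) were found for 25 of the 32 genes, 33 promoters in all, and the 250 bases before each start were searched on both strands. The sterol regulatory element core TCACNCCAC stood in the promoter of Hmgcs1 alone among the members (3.03% of member promoters, 1.05% of all 32851 promoters). With up to 1 mismatch it stood in 33.3% of member promoters and 20.7% of all. CCAAT, the letters bound by NF-Y, was in 60.6% of member promoters against 33.8% of all, and in 77.8% of the 18 sterol promoters against 20% of the 5 fatty acid promoters. That 20% is 1 promoter, of Fasn, and no promoter was found for Scd1, Scd2 or Fads1. In both branches some stretches before a start lie inside the gene, among them those of Acaca, Fads2, Msmo1 and Tm7sf2. So few promoters cannot show a difference between the branches. GGGCGG, bound by Sp1, was in 72.7% of member promoters against 32.7% of all and 54.6% of the promoters of genes tested here. Matches to the core overlapped a CCAAT or GGGCGG match in 2 cases. A match describes letters only. The 6 stretches of 150 bases that end at the start shown here run 5′ to 3′ on the gene's strand and have CCAAT (or ATTGG, its reverse complement) and core matches with up to 1 mismatch in capitals: 4 of genes that fell strongly or carry several matches, and Insig2 and Scap, which did not pass the test at day 1.
Hmgcs1 (chr13:119690201-119690350, plus strand): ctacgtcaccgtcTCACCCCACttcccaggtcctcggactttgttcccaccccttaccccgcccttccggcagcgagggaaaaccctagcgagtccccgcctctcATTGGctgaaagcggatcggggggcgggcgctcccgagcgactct
Mvk (chr5:114444119-114444268, plus strand): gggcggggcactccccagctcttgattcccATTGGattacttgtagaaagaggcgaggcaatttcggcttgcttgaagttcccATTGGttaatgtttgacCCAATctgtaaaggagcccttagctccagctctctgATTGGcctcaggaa
Nsdhl (chrX:72918371-72918520, plus strand): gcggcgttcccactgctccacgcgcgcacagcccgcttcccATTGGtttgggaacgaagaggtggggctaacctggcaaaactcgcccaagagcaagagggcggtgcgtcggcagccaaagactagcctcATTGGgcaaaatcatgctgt
Fasn (chr11:120824548-120824697, minus strand): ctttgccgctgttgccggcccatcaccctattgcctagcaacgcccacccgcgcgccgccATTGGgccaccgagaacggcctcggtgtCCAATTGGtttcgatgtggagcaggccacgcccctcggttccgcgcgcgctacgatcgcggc
Insig2 (chr1:121332590-121332739, minus strand): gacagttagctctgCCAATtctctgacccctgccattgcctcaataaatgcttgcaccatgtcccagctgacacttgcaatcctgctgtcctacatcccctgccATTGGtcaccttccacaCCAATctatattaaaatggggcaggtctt
Scap (chr9:110333138-110333287, plus strand): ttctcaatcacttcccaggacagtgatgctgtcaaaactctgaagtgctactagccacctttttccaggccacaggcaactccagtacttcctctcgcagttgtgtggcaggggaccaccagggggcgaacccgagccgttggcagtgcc
In the Hmgcs1 stretch the exact core lies 137 to 129 bases before the start, with ATTGG 45 to 41 bases before it. Mvk, Fasn and Insig2 show CCAAT on one or the other strand 4, 3 and 3 times. Scap shows none of the capitalised letters in this window. Only stretches that lie wholly outside the gene were eligible to be shown. Another promoter of Insig2, inside the gene, has a core match with 1 mismatch 11 to 3 bases before its start. The core match of Nsdhl, 205 to 197 bases before the start, lies outside the stretch shown. The stretches therefore do not set changed genes against unchanged ones.

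At day 1, 30 of the 32 genes were lower in KO than in WT and none was higher, by edgeR's quasi-likelihood test with Benjamini-Hochberg adjustment. Among all 15368 genes tested, 60.8% differed, 30.6% higher and 30.2% lower. All 18 sterol genes, 4 of 6 control genes and all 8 fatty acid genes fell, with medians of -2.21, -1.73 and -2.02 on the log2 scale, where the median of all genes was 0.01. Of the 30, 28 fell at least 2-fold, against 19.6% of all genes called at that size in either direction. The groups did not overlap in 30 genes, against 66.8% of all genes. These 30 calls held when any of the 6 libraries was left out.

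The 4 largest falls of the set lay at the early, mevalonate end of the sterol route. Hmgcs1, the synthase that makes HMG-CoA, stood at 448, 438 and 425 CPM in the WT libraries and 53.3, 41.2 and 51.1 CPM in the KO libraries. These ranges lay far apart, and the fold change was -3.16 ± 0.09 (log2, SE; adjusted p = 1.41e-11). Fdps, which makes farnesyl diphosphate, went from 27.9, 28.6 and 29.4 CPM in WT to 1.94, 1.28 and 1.22 CPM in KO. That was the largest fall of the set (-4.27 ± 0.15, adjusted p = 1.24e-10), at a level of under 2 CPM in every KO library. Pmvk, the phosphomevalonate kinase, fell from 69.5 ± 3.58 to 6.59 ± 1.57 CPM (-3.39 ± 0.13). Acat2, the thiolase that joins acetyl-CoA units, fell from 169 ± 3.7 to 22.7 ± 2.84 CPM (-2.89 ± 0.08). Idi1, the isopentenyl diphosphate isomerase (-2.63 ± 0.11), and Mvd, the decarboxylase that precedes it (-2.29 ± 0.09), fell too. Mvk, the mevalonate kinase, fell least of the mevalonate enzymes, from 23 ± 1.64 to 10.4 ± 1.02 CPM (-1.14 ± 0.11).

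The enzymes from squalene to cholesterol all fell as well. Fdft1, squalene synthase, had 286, 296 and 284 CPM in WT and 58, 56.6 and 66 CPM in KO (-2.25 ± 0.07). Sqle, squalene epoxidase and a flux-controlling step, had 448, 458 and 453 CPM in WT and 184, 198 and 173 CPM in KO, a smaller fall (-1.28 ± 0.06). No KO library reached the lowest WT library in either gene. Lss, lanosterol synthase, fell by 2.48 on the log2 scale and Cyp51, the lanosterol demethylase, by 2.05. Of the enzymes that act together to remove methyl groups from the ring, Msmo1 changed by -2.17, Nsdhl by -2.69 and Hsd17b7 by -1.58. Tm7sf2, a sterol reductase (-1.24), Sc5d, a sterol desaturase (-1.77), and Dhcr7, which makes cholesterol from its last precursor on one branch (-1.98), also fell. Ebp, the sterol isomerase, fell least of the 18, from 45.8, 49.6 and 53.8 CPM to 32.2, 30.4 and 34.5 CPM (-0.61 ± 0.08, adjusted p = 2.99e-05).

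Among the control genes, Insig1, Srebf1, Srebf2 and Stard4 fell, while Insig2 and Scap did not pass the test. Insig1, an anchor of the SCAP complex and itself a target, had 282, 293 and 284 CPM in the WT libraries against 55, 49.4 and 55.9 CPM in the KO libraries (-2.41 ± 0.06, adjusted p = 1.01e-11). Its paralogue Insig2 had 135, 134 and 137 CPM in the WT libraries against 136, 114 and 155 CPM in the KO libraries. The KO libraries of Insig2 lay on both sides of the WT libraries, and the fold change was 0.00 ± 0.09 (adjusted p = 0.973). Scap overlapped as well, with 33.6, 31.6 and 26.1 CPM in WT against 24.9, 30.9 and 25.7 CPM in KO (-0.16 ± 0.11, adjusted p = 0.241; without KO replicate 2 it was -0.25 with adjusted p = 0.0367). Srebf1 fell from 108 ± 6.28 to 27.3 ± 4.2 CPM (-1.98 ± 0.10) and Srebf2 from 549 ± 10.7 to 196 ± 10.4 CPM (-1.47 ± 0.06). Stard4, a carrier of cholesterol between membranes, fell from 140.3 ± 3.18 to 24.9 ± 2.77 CPM (-2.49 ± 0.08). Side by side, KO cells at day 1 held 135 ± 20.5 CPM of Insig2 beside 53.4 ± 3.54 CPM of Insig1, whereas WT cells held 135 ± 1.67 CPM beside 286 ± 5.69 CPM.

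All 8 fatty acid genes fell. Scd2, a stearoyl-CoA desaturase and the most abundant of the 32 genes, had 3483, 3517 and 3560.2 CPM in WT and 549, 525 and 483 CPM in KO (-2.75 ± 0.06, adjusted p = 2.29e-12). Its neighbour in the genome Scd1 had 1960.2, 1962 and 2027 CPM and 344, 320.2 and 339 CPM (-2.56 ± 0.06). Fasn, the fatty acid synthase, had 517, 537 and 536 CPM in WT and 100.1, 115 and 79 CPM in KO (-2.43 ± 0.10). In all 3 genes each KO library stood far below each WT library, with Scd1 and Scd2 together making up 48.8% to 49.3% of the set's counts in WT and 33.6% to 34.7% in KO. Elovl6, an elongase, fell by 2.22 and Acaca, the acetyl-CoA carboxylase that makes malonyl-CoA, by 1.82. Acly, which splits citrate to supply acetyl-CoA, fell by 1.28. The desaturases of polyunsaturated fatty acids changed by -1.31 ± 0.06 (Fads2) and -0.96 ± 0.05 (Fads1), Fads1 being the least reduced of the branch, from 279, 289 and 287 CPM to 144, 147 and 145 CPM.

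**Figure D2:**
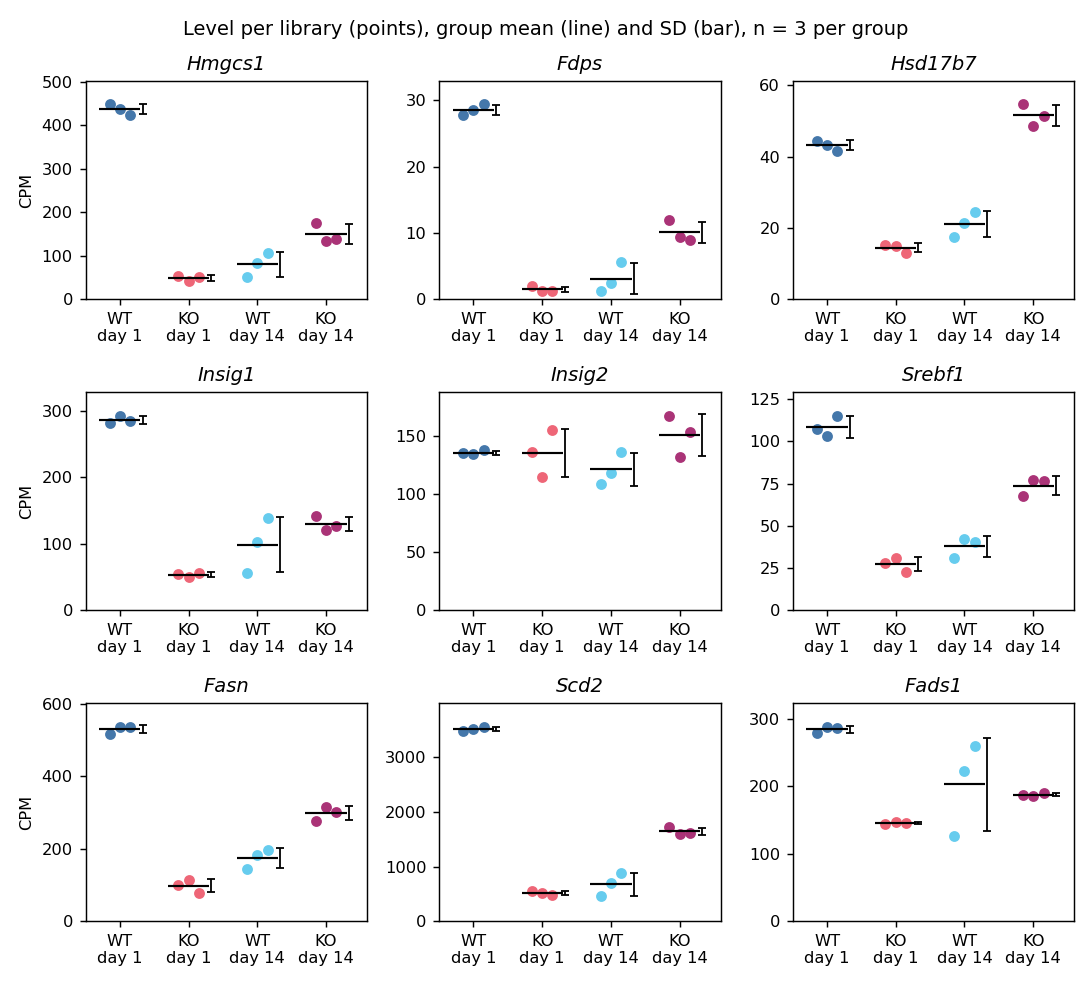
Level in CPM (vertical axes, each from 0) of 9 genes in every library, by group (horizontal axes), with the group mean (line) and SD (bar), n = 3. WT at day 1 is the highest group except for Hsd17b7 and Insig2, and for Fads1 the WT libraries of day 14 lie on both sides of the KO libraries of that day.

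At day 14 the direction was the opposite: 19 of the 32 genes were higher in KO than in WT and none was lower. Among 14905 genes tested, 46.4% differed, 22.7% higher and 23.7% lower. The 19 comprised 11 of 18 sterol genes, 2 of 6 control genes and 6 of 8 fatty acid genes, with medians over all members of 0.71, 0.42 and 0.78 (median of all genes -0.00). At 2-fold or more, 7 genes passed, against 20.5% of all genes. The groups did not overlap in 22 of the 32 genes, against 58.1% of all genes. The sterol count rested in part on 1 library, since without KO replicate 1 it was 5 of 18. Over the 6 ways to leave out a library, 13 to 23 genes were higher, the largest count being without WT replicate 3 (20.2% of all genes higher in that fit) and the smallest without KO replicate 1 (16.9%). Calls that held in all 6 numbered 13, and those lost in at least 1 were Hmgcs1, Idi1, Fdps, Sqle, Tm7sf2 and Dhcr7.

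Hsd17b7, the keto reductase of sterol synthesis, had the smallest adjusted p of the sterol genes at day 14. It had 17.4, 21.4 and 24.5 CPM in the WT libraries against 54.6, 48.6 and 51.5 CPM in the KO libraries, with no overlap (1.28 ± 0.14, adjusted p = 1.11e-04). It was also the one sterol gene whose mean in KO at day 14, 51.6 ± 3 CPM, stood above that of WT at day 1, 43.1 ± 1.39 CPM. Fdps had the largest rise, from 1.25, 2.44 and 5.64 CPM in WT to 11.9, 9.39 and 8.9 CPM in KO (1.67 ± 0.44, adjusted p = 0.013). The WT libraries of Fdps differed from one another more than 4-fold, and without KO replicate 1 the adjusted p was 0.0582. Acat2 (1.31 ± 0.27), Nsdhl (1.05 ± 0.18), Mvk (0.77 ± 0.13) and Sc5d (0.68 ± 0.12) rose as well, each with no overlap between the groups. Hmgcs1 had 50.02, 84.3 and 105 CPM in WT and 175, 134 and 139 CPM in KO (0.89 ± 0.24, adjusted p = 0.0135). Idi1, Dhcr7, Tm7sf2 and Sqle rose by 1.21, 0.87, 0.61 and 0.44.

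The other sterol genes, 7 in all, did not pass the test at day 14. The values were 0.75 ± 0.29 for Pmvk (adjusted p = 0.0612), 0.68 ± 0.25 for Cyp51 (adjusted p = 0.051), 0.33 ± 0.27 for Msmo1 and 0.30 ± 0.20 for Fdft1. For Mvd (0.17 ± 0.26), Lss (0.17 ± 0.20) and Ebp (0.10 ± 0.10) the difference was within about 1 SE. In Mvd the 3 KO libraries, at 22.4, 19.9 and 22.4 CPM, stood within the WT range, at 11, 22.6 and 23.8 CPM, and without WT replicate 1 the values were -0.13 for Mvd and -0.04 for Lss. Without WT replicate 1, Pmvk (0.45, adjusted p = 0.0349) and Cyp51 (0.39, adjusted p = 0.00305) passed at smaller values. Without WT replicate 3 they passed at larger ones, 1.08 for Pmvk (adjusted p = 0.0151) and 0.94 for Cyp51 (adjusted p = 0.0163). Both also passed when all 12 libraries were fitted together (adjusted p = 0.0157 and 0.00857) and with DESeq2 (adjusted p = 0.0321 and 0.0205). Cyp51 passed with the replicate block too (adjusted p = 0.0497). Msmo1 was 0.04 without WT replicate 1 and 0.64 without WT replicate 3, and Fdft1 was 0.07 and 0.50, none of them a call. With no filter on low counts, Pmvk, Cyp51, Msmo1 and Fdft1 were all called.

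Of the control genes, Srebf1 rose from 31, 42.2 and 40.3 CPM in WT to 67.4, 77.2 and 76.8 CPM in KO (0.95 ± 0.13, adjusted p = 4.43e-04). Stard4 rose from 22.4, 46.2 and 52.2 CPM to 108, 90.6 and 90.8 CPM (1.25 ± 0.26, adjusted p = 0.00446). For both, each KO library was above each WT library. Srebf2 had 169, 256 and 323 CPM in WT and 337, 356 and 345 CPM in KO, also without overlap, but with WT libraries so far apart that the test gave adjusted p = 0.0834 for 0.46 ± 0.20. Without WT replicate 1 it was 0.23 (adjusted p = 0.0274), and without WT replicate 3 it was 0.69 (adjusted p = 0.0126). Srebf2 also passed in the fit of 12 libraries (adjusted p = 0.0175) and with the replicate block (adjusted p = 0.0366). Insig1 (0.38 ± 0.27), Insig2 (0.30 ± 0.12) and Scap (0.18 ± 0.14) did not pass. Insig1 was 0.07 without WT replicate 1 and 0.71 without WT replicate 3 (adjusted p = 0.0421). With no filter on low counts Insig1, Insig2, Srebf2 and Fads2 were called. Insig2 also passed without WT replicate 3 (0.40, adjusted p = 0.036), without KO replicate 2 (adjusted p = 0.0494) and in the fit of 12 libraries (adjusted p = 0.0312). The 2 calls among the 6 control genes became 5 without WT replicate 3.

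Of the fatty acid genes, 6 rose at day 14, and these calls were kept in every fit that left out 1 library. Scd2 had 462, 701 and 878 CPM in the WT libraries against 1725, 1601 and 1608 CPM in the KO libraries (1.26 ± 0.20, adjusted p = 9.38e-04), and Scd1 had 262, 421 and 532 CPM and 807, 723 and 753 CPM (0.90 ± 0.21). Acaca had 47.2, 58.1 and 55.7 CPM in WT and 105, 108 and 97.6 CPM in KO (0.94 ± 0.10, adjusted p = 1.37e-04). Fasn (0.76 ± 0.12), Acly (0.81 ± 0.11) and Elovl6 (0.59 ± 0.10) rose with no overlap between the groups. The 2 genes of polyunsaturated fatty acid desaturation did not pass, at 0.33 ± 0.20 for Fads2 and -0.12 ± 0.22 for Fads1. Fads2 was 0.08 without WT replicate 1 and 0.52 without WT replicate 3. Fads1 had 126, 223 and 259 CPM in WT around a narrow 188, 186 and 189.9 CPM in KO. Without WT replicate 1 it was lower in KO (-0.39, adjusted p = 1.67e-04), and without WT replicate 3 the value was 0.10.

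**Figure D3:**
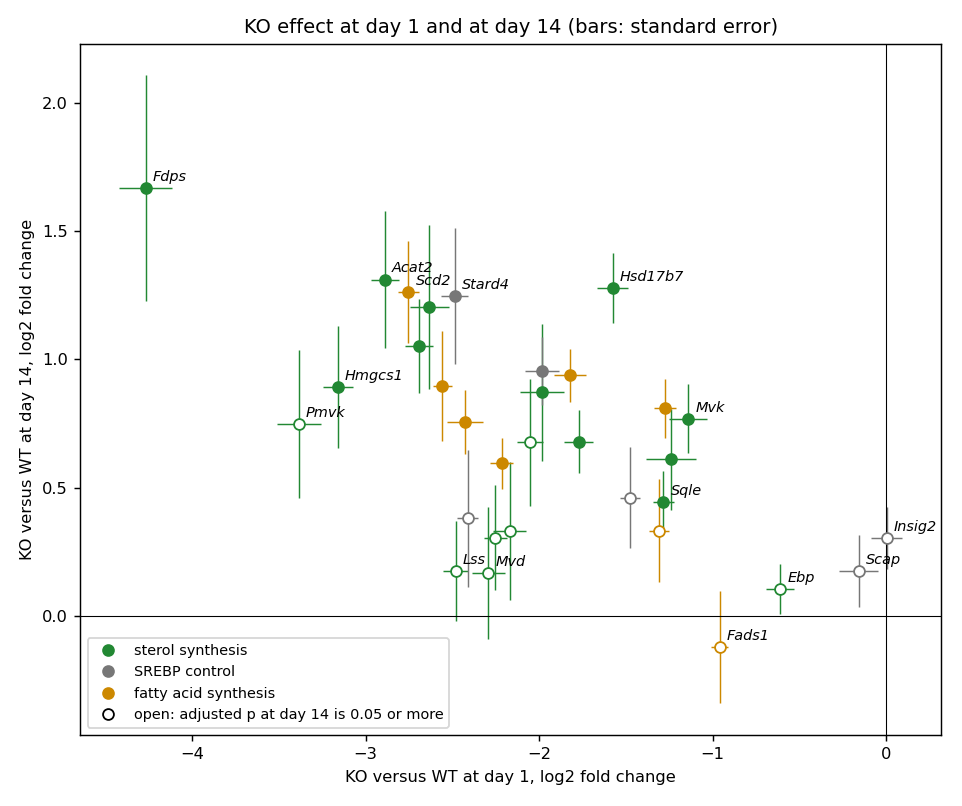
Log2 fold change of KO over WT at day 14 (vertical axis) against that at day 1 (horizontal axis), with standard errors as bars, for the 32 genes coloured by role. Filled points are genes with an adjusted p below 0.05 at day 14. All genes but Insig2 and Scap lie well to the left of 0, and all but Fads1 lie above 0.

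The change of the KO effect from day 1 to day 14, tested as an interaction in 1 fit of all 12 libraries, was positive in 30 of the 32 genes and negative in none. Over 15973 genes, 60.1% passed this test, 29.5% in the positive direction. It covered all 18 sterol genes (median 2.71), 4 of 6 control genes (median 2.39) and all 8 fatty acid genes (median 2.81), and 28 of the 30 were over 2-fold, against 35.8% of all genes. The 30 calls held without any 1 of the 12 libraries. The largest change was that of Fdps (5.95 ± 0.49), followed by Acat2 (4.22 ± 0.31), Pmvk (4.15 ± 0.34), Hmgcs1 (4.08 ± 0.28) and Scd2 (4.04 ± 0.22). The smallest that passed were Ebp (0.74 ± 0.13, adjusted p = 1.42e-04) and Fads1 (0.86 ± 0.24, adjusted p = 0.00599). Insig2 (0.32 ± 0.16, adjusted p = 0.0999) and Scap (0.35 ± 0.19, adjusted p = 0.126) did not pass, though Insig2 did without KO replicate 3 of day 1 (0.42, adjusted p = 0.0369).

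Between the days, the 2 genotypes moved in opposite directions. In WT, 30 of 32 genes were lower at day 14 than at day 1 (51.9% of all genes differed, 26.1% in the lower direction), with medians of -1.64 for sterol, -1.33 for control and -1.55 for fatty acid genes. In KO, 29 were higher at day 14 (54.8% of all genes differed, 26.9% in the higher direction), with medians of 1.14, 1.05 and 1.15. Called changes of at least 2-fold numbered 25 in WT (19.8% of all genes) and 18 in KO (22.3%), and the days did not overlap in 30 (58.6%) and 29 genes (65.1%). Each day has its own deposited table, and the day cannot be told apart from a batch that follows the table. A shift shared by a table would cancel in the interaction. These 2 contrasts share no library with each other, but each shares its libraries with the comparisons of genotype.

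Hmgcs1 fell by 2.45 in WT and rose by 1.62 in KO. Fdps fell by 3.18 in WT and rose by 2.77 in KO, and Scd2 fell by 2.37 and rose by 1.66. Fasn changed by -1.60 ± 0.13 in WT and 1.61 ± 0.13 in KO. Hsd17b7 rose by 1.84 ± 0.12 in KO and changed by -1.03 ± 0.12 in WT. Elovl6 changed by -1.92 ± 0.08 in WT and rose by 0.91 ± 0.08 in KO. Srebf1 changed by -1.52 and 1.44, and Srebf2 by -1.14 and 0.82. The genes that did not pass were Insig2 (-0.16 in WT, 0.16 in KO), Scap in WT (0.05), and Ebp (0.12) and Fads1 (0.37, adjusted p = 0.0774) in KO. Fads1 in KO passed in 4 other settings: without WT replicate 1 of day 14 (adjusted p = 3.04e-05), without WT replicate 3 of day 14 (adjusted p = 0.0393), with no filter (adjusted p = 0.0284) and with the replicate block (adjusted p = 0.0459). Scap passed in KO (0.40 ± 0.14, adjusted p = 0.0224). Leaving out KO replicate 1 of day 1, replicate 3 of day 1 or replicate 3 of day 14 ended that call, with an adjusted p of 0.0819, 0.0701 and 0.17. The fall of Fads1 in WT (-0.49 ± 0.17, adjusted p = 0.024) did not pass without WT replicate 2 or 3 of day 1 (adjusted p = 0.0568 and 0.0555).

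The crossed pairs differ in genotype, day and deposited table at once, so a shift shared by a table does not cancel in them. KO at day 14 was below WT at day 1 in 26 of 32 genes and above it in none (50.7% of all genes differed, 26.1% lower), with medians of -0.91 for sterol, -0.55 for control and -0.71 for fatty acid genes. The deepest were Pmvk (-1.91 ± 0.23), Lss (-1.80 ± 0.16), Fdft1 (-1.56 ± 0.16) and Hmgcs1 (-1.55 ± 0.19). The 6 that did not pass were Mvk (-0.10 ± 0.12), Dhcr7 (-0.37 ± 0.22), Acly (-0.17 ± 0.09), Hsd17b7 (0.26 ± 0.11), Insig2 (0.15 ± 0.11) and Scap (0.24 ± 0.14). Called at 2-fold or more were 12 (17.3% of all genes), and 29 did not overlap (69.5%). With library totals as the only scaling, Hsd17b7 passed as higher.

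KO at day 1 and WT at day 14, the pair of groups most alike across all genes, differed in 10 of the 32 genes, all lower in KO at day 1 (9.78% of all genes differed, 3.89% higher and 5.89% lower). The 10 were Hmgcs1, Mvd, Nsdhl, Hsd17b7 and Acat2 of the sterol route, Insig1 and Srebf1, and Fasn, Elovl6 and Fads2. Fasn gave the smallest adjusted p (-0.83 ± 0.13, adjusted p = 0.0011), with 100.1, 115 and 79 CPM in KO at day 1 and 143, 184 and 198 CPM in WT at day 14, which did not overlap. The groups were apart in 4 genes (20.5% of all genes), and 0 were called at 2-fold or more (2.15%). The count depended on single libraries. Without WT replicate 1 of day 14, 26 genes were lower, and 16.6% of all genes were lower in that fit. It was 2 without WT replicate 2 (Hsd17b7 and Fasn) and 1 without WT replicate 3 (Fasn). Leaving out KO replicates 1, 2 and 3 of day 1 gave 3, 6 and 1. In these last 5 fits, 2.60% to 5.14% of all genes were lower.

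Set against each other, the sterol and fatty acid branches had medians of the same sign in each of the 7 comparisons. By library, the median sterol gene lay at -2.27, -2.41 and -2.09 relative to WT at day 1 in KO at day 1, and the median fatty acid gene at -2.01, -1.90 and -2.13. In KO at day 14 the sterol values were -0.70, -1.02 and -1.04 and the fatty acid values -0.76, -0.68 and -0.72. In WT at day 14 they were -2.35, -1.59 and -1.33 for sterol and -1.78, -1.45 and -1.43 for fatty acid genes. The sterol branch was thus the more spread over the libraries of WT at day 14, while in KO at day 14 replicates 2 and 3 had the sterol median below the fatty acid median and replicate 1 had it slightly above. The median of the control genes lay above both branches in all 9 of these libraries, by least in WT replicate 1 of day 14 (-1.75). The 6 control genes include Insig2 and Scap, which stayed near 0 and so raise that median. These medians describe the members, and their differences between branches were not tested.

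**Figure D4:**
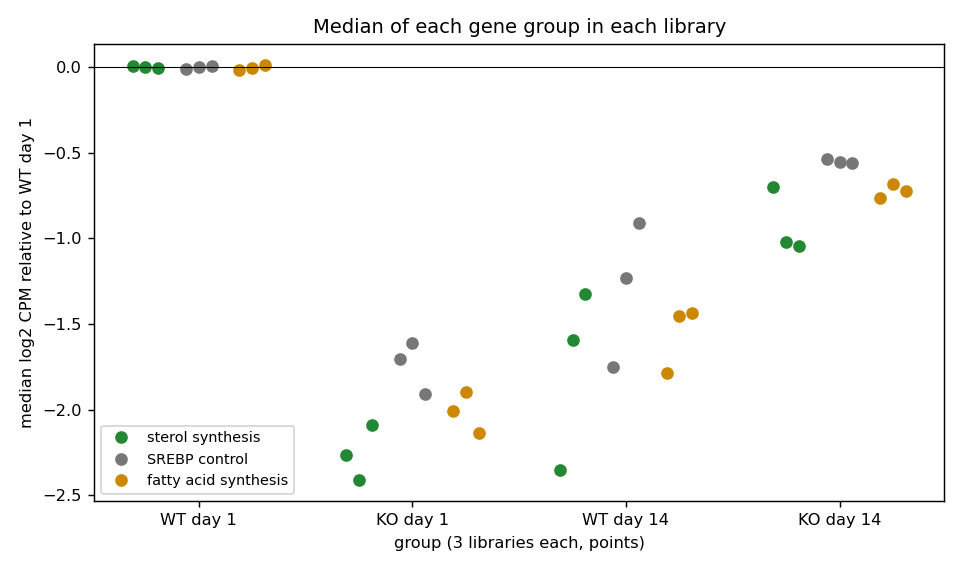
Median log2 CPM relative to WT at day 1 (vertical axis) of the sterol, control and fatty acid genes in each library (points), by group (horizontal axis, 3 libraries each). KO at day 1 and WT replicate 1 of day 14 lie lowest, and KO at day 14 lies between the other day 14 libraries and WT at day 1.

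Within the branches the size of the day 1 fall ranged from 0.61 (Ebp) to 4.27 (Fdps) in sterol genes and from 0.96 (Fads1) to 2.75 (Scd2) in fatty acid genes, on the log2 scale. Per kilobase of exon, the level was highest for Scd2 and Scd1 in all 4 groups. Scd2 had 644 ± 7.08 CPM per kb in WT at day 1, 95 ± 6.07 in KO at day 1, 124 ± 38.2 in WT at day 14 and 301 ± 12.7 in KO at day 14. Next after these came Hmgcs1 in WT at day 1 (95.1 ± 2.59 CPM per kb), Insig2 in KO at day 1 (38.9 ± 5.89), Fads1 in WT at day 14 (42.2 ± 14.3) and Acly in KO at day 14 (58.9 ± 3.3). The lowest was Tm7sf2 in WT at day 1 (2.48 ± 0.197) and in KO at day 14 (1.82 ± 0.127), and Fdps in KO at day 1 (0.352 ± 0.0955) and in WT at day 14 (0.74 ± 0.54).

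Some counts may hold reads of other genes, since the counting was not described. By 50-base subsequences of the GENCODE M21 transcripts (GRCm38), 39.1% of Acat2 was shared with other genes (Acat3 and Tcp1), 30.4% of Acaca, 26.5% of Fdft1, 26.2% of Fdps, 25.3% of Idi1 and 11.6% of Hmgcs1. Exons on the other strand overlapped 18.3% of Fdft1 (Ctsb) and 13.2% of Scap. On the same strand, Gm43738 overlapped 26.7% of Fdps and Vps51 12.1% of Tm7sf2. How many reads this could move was not tested, so the values of these genes are uncertain. Shared stretches between Scd1 and Scd2 were shorter, under 5% of each.

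Other lipid genes, in 6 lists outside the 32, moved less uniformly. At day 1 the lower calls were 13 of 22 tested genes of fatty acid supply and elongation (3 higher), 7 of 11 of cholesterol handling (0 higher), 6 of 10 of fatty acid oxidation (1 higher), 4 of 12 of glycerolipid synthesis (5 higher), 3 of 15 of the isoprenoid branch (3 higher) and 2 of 7 of SREBP processing (3 higher), against 30.2% of all genes lower. Acss2, which makes acetyl-CoA from acetate, fell from 46.8 ± 2.3 to 8.5 ± 0.567 CPM (-2.45 ± 0.09), and Slc25a1, the mitochondrial citrate carrier, from 142 ± 8.36 to 26.7 ± 1.36 CPM (-2.40 ± 0.07). Lpin1, a phosphatidate phosphatase (-2.39 ± 0.09), and Lipa, the lysosomal acid lipase (-1.34 ± 0.07), were lower too. Genes that attach or process prenyl groups on proteins moved in both directions: Rabggta (-0.96 ± 0.10) and Icmt (-0.57 ± 0.06) fell, and Fnta (0.52 ± 0.07) rose. Of the proteases that cut SREBP, Mbtps1 fell by 0.69 and Mbtps2 by 0.19.

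At day 14 the higher calls were 8 of 21 of fatty acid supply and elongation (4 lower), 5 of 11 of cholesterol handling (2 lower), 5 of 10 of fatty acid oxidation (0 lower), 3 of 15 of the isoprenoid branch (2 lower), 2 of 7 of SREBP processing (1 lower) and 1 of 12 of glycerolipid synthesis (3 lower), against 22.7% of all genes higher. Lipa rose by 1.40 ± 0.15 and Mbtps1 by 0.34 ± 0.09, both the reverse of day 1. Stard5, a sterol carrier (1.36 ± 0.14), Acsl4, an acyl-CoA synthetase (0.81 ± 0.10), and Elovl5, an elongase (0.81 ± 0.08), rose, while Gpam, which starts glycerolipid synthesis (-0.79 ± 0.09), fell. The KO effect on Acss2 and Slc25a1 changed between the days by 2.99 ± 0.41 and 2.97 ± 0.33. Cpt1a, the carrier enzyme of fatty acid oxidation, was lower in KO at day 1 (-1.03 ± 0.06) and higher at day 14 (0.61 ± 0.14).

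Markers of other cell types also differed between the groups, and their part in these results was not tested. The summed level of 7 adipocyte markers was 114 to 127 CPM in WT and 345 to 438 CPM in KO at day 1, and 356 to 593 CPM in WT and 987 to 1161 CPM in KO at day 14, mostly Lpl, with Cfd at 0 counts in 3 groups. Of the 3 adipocyte markers tested at day 14, Lpl was higher in KO (1.23), and Fabp4 (-1.07) and Pparg (-1.96) were lower, whereas all 3 were higher at day 1. For 7 adventitial fibroblast markers the sums were 564 to 570.5 and 244 to 366 CPM at day 1, and 507 to 698 and 681 to 760.2 CPM at day 14. All 5 tested were lower in KO at day 1, while at day 14 Pdgfra was higher (1.18), Dcn (-1.47) and Cd34 (-2.39) were lower, and Ly6a had 0.23 with no call. For 6 endothelial markers the sums were 13.6 to 16.1 and 4.62 to 6.49 CPM at day 1, and 7.95 to 10.2 and 7.06 to 8.33 CPM at day 14. Of the 2 tested at day 1, 1 was higher in KO (1.22) and 1 lower (-1.92). At day 14, 2 of the 3 tested were lower in KO and 0 higher. For 6 macrophage markers the sums were 60.2 to 65.7 and 60.7 to 73.0 CPM at day 1, and 64.4 to 95.8 and 50.3 to 54.3 CPM at day 14. Of the 3 tested at day 1, 2 were higher in KO and 1 lower. At day 14, 1 of the 4 tested was higher and 1 lower. For 4 mesothelial markers the sums were 399.7 to 408 and 354 to 361 CPM at day 1, and 269.5 to 412 and 78.3 to 82.2 CPM at day 14, mostly Msln. Of the 3 tested, 2 were lower in KO at day 1 and 3 at day 14, with 0 higher.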

How the data were processed

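Total RNA was extracted with TRIzol and made into libraries with the NEBNext Ultra RNA kit, per the labels' protocols. For each day the authors deposited 1 table of raw counts, with genes given by name. The build is mm9, per the submitters' processing notes. Not given in the sources used here: aligner, counter, annotation and strand setting. The day was taken from the table, and columns named CTR were read as WT. Exact repeats of a line were dropped (43 at day 1, 53 at day 14), and 2 names with differing counts were left out of the fit of 12 libraries.

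Counts were analysed in R 4.3.3 with edgeR 4.0.16 (TMM scaling, filterByExpr, quasi-likelihood test, with p-values adjusted by Benjamini-Hochberg over every gene in the fit and calls made under 0.05). The genotypes were compared within each day's 6 libraries. The interaction, the contrasts between days and the crossed pairs came from 1 fit of 12 libraries, which also gave all CPM values. Standard errors were derived from the log2 fold change and its F statistic. The fits were also run on simulated data in which only a small share of genes was changed. That differs from these data, where many genes were called, and its outcome is not given here. Exon lengths came from GENCODE M21 and promoters from RefSeq. All 32 genes are named. Of the other lipid lists, up to 2 rising and 2 falling genes per comparison could be named, by size of change at an adjusted p below 0.05 and a mean log2 CPM of at least 1. The genes and lists were chosen with earlier results of these data known.

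Alternatives were median-of-ratios size factors, library totals alone, DESeq2 1.42.0, no filter, a minimum of 1 CPM in 3 libraries, a replicate block, all 12 libraries in 1 fit and leaving out each library. For the crossed pairs, leaving out libraries was chosen after seeing the data.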

Additional observations from a re-analysis of the deposited data

Results flagged for a closer look

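The effect of the knockout on 30 of the 32 genes differed between day 1 and day 14 by the interaction test of edgeR, and each of these differences is given here as the day 14 effect minus the day 1 effect on the log2 scale, positive in all. In the mevalonate part they were 4.22 for Acat2, 4.08 for Hmgcs1, 1.93 for Mvk, 4.15 for Pmvk, 2.48 for Mvd, 3.86 for Idi1 and 5.95 for Fdps. From squalene on they were 2.58 for Fdft1, 1.75 for Sqle, 2.68 for Lss, 2.75 for Cyp51, 1.87 for Tm7sf2, 2.52 for Msmo1 and 3.77 for Nsdhl. The last sterol steps had 2.87 for Hsd17b7, 0.74 for Ebp, 2.47 for Sc5d and 2.88 for Dhcr7. Among control genes the values were 2.81 for Insig1, 2.96 for Srebf1, 1.96 for Srebf2 and 3.76 for Stard4. Fatty acid genes had 3.20 for Fasn, 2.78 for Acaca, 2.11 for Acly, 3.48 for Scd1, 4.04 for Scd2, 2.83 for Elovl6, 0.86 for Fads1 and 1.66 for Fads2. In the fits that left out 1 library each, and under the other scalings, filters and tests run, these 30 genes stayed called. The groups resemble each other crosswise across all genes (KO at day 1 with WT at day 14), which exchanged labels could also give. Neither this nor its part in the 30 values was tested.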

How the results depend on the processing

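All 30 calls at day 1 and all 30 of the interaction were kept under each alternative run, and 13 of 19 at day 14, 29 of 30 between days in WT and 28 of 29 in KO. At day 14 the higher genes numbered 19 to 27 under other scalings, filters, tests and fits (27 with no filter, 21 with DESeq2, 23 with all 12 libraries). With 1 library left out, the genes lower in KO at day 14 were 0 to 1, and those lower in KO at day 1 than in WT at day 14 were 1 to 26. Of all genes in those fits, 17.8% to 30.6% and 2.60% to 16.6% were lower. With library totals alone 1 gene was higher in KO at day 14 than in WT at day 1 (27.3% of all genes). That scaling moved the median of all genes to 0.14 for KO against WT at day 1, to -0.22 for the interaction and to 0.13 between days in WT, and the share of higher calls among all calls from 50.4% to 61.7%, from 49.2% to 37.9% and from 49.7% to 62.7%.

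Signs turned for genes without a call. Insig2 at day 1 was -0.00496 in the fit of 12 libraries, -0.0197 with no filter, -0.00704 with the replicate block and -8.07e-05 with DESeq2, and -0.102 to 0.116 with 1 library left out. Mvd at day 14 ranged from -0.135 to 0.365, Lss from -0.0396 to 0.305 and Fads1 from -0.391 to 0.0961 with 1 library left out, and Scap between days in WT from -0.0568 to 0.129.

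Same-numbered libraries of the 2 genotypes did not deviate together more than others (correlations across genes of -0.0232 to 0.0512). Libraries with different numbers gave -0.0732 to 0.0591. With deviations from means of 3 libraries, this check cannot exclude that the numbers mark pairs. With the replicate block 20 genes were higher at day 14, against 22.6% of all genes in that fit. Replicates of unknown origin, days that are also tables, and a treatment label that follows genotype limit what the contrasts stand for.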
